A study of Mus musculus with 6 samples.

Results

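The transcripts described here are those of 41 interferon-stimulated genes, taken by name from a table of raw read counts for 52636 genes. All 41 names matched a row of the table, 40 of the genes are annotated as protein-coding and Mx2 as a polymorphic pseudogene, and 38 of them passed the filter on low counts that 13901 genes passed in all. RNA sequencing was done on endothelial cells grown from mouse brain in endothelial medium and sorted as living cells without CD45 and with CD31 and VE-cadherin on their surface. The 3 control libraries came from cells labelled Wild Type Control, and the 3 knockout libraries from cells labelled as double knockouts of Erg and Fli1, a pair of ETS-family genes whose products regulate transcription in endothelium. Cells of both groups had been treated with 4-OHT, a tamoxifen metabolite used to switch on an inducible recombinase. The labels name neither the recombinase and its promoter nor the age of the mice. They also do not say whether libraries of a group came from separate cultures or animals. The p-values therefore reflect only how these libraries vary, which may be technical between libraries from cells of the same sex.

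Interferon-stimulated genes are transcribed when an interferon binds its receptor on the cell surface. Type I interferons act through the receptor pair encoded by Ifnar1 and Ifnar2 and the kinases JAK1 and TYK2, which activate STAT proteins. With IRF9 these form a complex that binds a DNA element called the ISRE, while signalling from interferon gamma acts through a further element, GAS. The products of these genes detect viral RNA or DNA, block virus entry, degrade or sequester RNA, and feed back on the pathway, and many cells keep a low level of them without infection.

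Between 17274639 and 19410458 reads per library were counted to genes. Expression is given in CPM, read counts scaled to a common library size by the TMM method, and 3 values in a row are those of libraries 1, 2 and 3 of a group. Erg was at 656, 223 and 609.6 CPM in controls and 70.2, 88.3 and 109 CPM in knockouts, each knockout lying below each control (log2 fold change -2.48 with SE 0.44, edgeR adjusted p = 0.0137). The Erg call did not hold when control 3, or a single knockout library, was left out (edgeR adjusted p up to 0.0691), and held without control 2 (2.26e-05). Fli1 was at 82.9, 64.1 and 92.1 CPM in controls and 57.0, 68.5 and 66.7 CPM in knockouts (log2 fold change -0.32 with SE 0.15, edgeR adjusted p = 0.181). Without control 2 Fli1 was called lower (log2 fold change -0.48, edgeR adjusted p = 0.00346), and it was not called with any other library left out. Whole-gene counts also include transcripts that lack deleted exons. Control 2 stood apart from its group: 10 fibroblast markers summed to 13156 CPM there and to 451 and 1190.3 CPM in controls 1 and 3, while 10 endothelial markers summed to 6224 CPM against 14478 and 14590.3 CPM. In the knockouts these sums were 1658 to 2914 CPM for the fibroblast markers and 3501 to 4227 CPM for the endothelial markers, of which 9 of 10 fell. Dcn alone made up 1343 to 2110 CPM of the knockout fibroblast sums, and without it, a choice made after seeing the values, the sums were 314 to 804 CPM in knockouts and 447, 12840 and 1183 CPM in controls. Pericyte and smooth muscle markers (10 genes) summed to 4164 CPM in control 2 and to 460 and 568 CPM in controls 1 and 3. Their knockout sums were 727 to 1502 CPM. Of these sums Acta2 alone made up 3049 CPM in control 2, 379 and 462 CPM in controls 1 and 3, and 522 to 1131 CPM in knockouts. Astrocyte markers (8 genes) summed to 312 CPM in control 2, to 113 and 163 CPM in controls 1 and 3, and to 59.4 to 78.6 CPM in knockouts. Most of each of these sums was Gja1, at 294 CPM in control 2, 103 and 152 CPM in controls 1 and 3, and 46.0 to 65.3 CPM in knockouts. Control 2 and knockouts 2 and 3 were female by their Xist counts, and the other 3 libraries male. Each group thus held libraries of both sexes, which cannot come from a single animal. Among 12 leukocyte and microglia markers, Ptprc (CD45) was at most 0.211 CPM in any library. This list summed to 4.46 to 15.7 CPM in 5 libraries and to 167 CPM in control 2, where Tmem119 alone had 160.0 CPM. Results are therefore given with and without control 2.

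Sequence at the promoters was examined because most of these genes are known targets of the same DNA element. RefSeq promoters (build GRCm38.p6, 250 bases before to 50 bases after a start) were found for 32 of the 41 genes. The ISRE core, GAAA repeated with 2 bases of any kind between the copies, on either strand, lay in the promoters of 19 of these 32 genes, or 59.4%, against 3.99% of all 27025 genes of the promoter table. The GAS motif TTCNNNGAA lay in 9 of 32 (28.1%, against 9.55% of all genes), and an ETS motif, CCGGAAG or CAGGAAG, in 12 of 32 (37.5%, against 23.15% of all genes). Among the genes called higher in the knockout, 4 of 7 with a promoter held the ISRE core, and among the others 15 of 25. For GAS these counts were 4 of 7 and 5 of 25, and for the ETS motif 4 of 7 and 8 of 25. The differences between called and other genes were not tested. Of the genes called higher, Ifitm1, Irf1 and Ifit2 had promoters without the core, and no promoter was found for Zbp1, Mx2 and Iigp1. The runs below come from some of the genes with a match. They are written 5′ to 3′ on the strand of the gene, with the ISRE core in capitals and 6 flanking bases on each side. Where the core reads on the opposite strand it appears as TTTC repeated, and overlapping matches form 1 run.
Ifitm2 (46 bases before the start): caacagGAAAAGGAAAttgcta
Ifitm3 (base 3 after the start): attcagGAAAAGGAAActtctg
Ifitm3 (base 20 after the start): ttctgaGAAACCGAAActgccg
Irgm1 (30 bases before the start): tttcaaGAAATAGAAACCGAAActgatt
Eif2ak2 (base 19 after the start): cgccggGAAAACGAAAcagaag
Stat2 (222 bases before the start): ccctggTTTCAGTTTCctttcc
Ifit1 (104 bases before the start): cttcagTTTCACTTTCcagtct
Ifit1 (85 bases before the start): tctcagTTTCAGTTTCtcactg
Ifit3 (156 bases before the start): ggtaagTTTCACTTTCctcttc
Ifit3b (188 bases before the start): ggtaagTTTCACTTTCctcttc
Bst2 (130 bases before the start): ttccagGAAAATGAAACTGAAAggctgc
Isg15 (bases 150 to 51 before the start, chr4:156200869-156200968, minus strand): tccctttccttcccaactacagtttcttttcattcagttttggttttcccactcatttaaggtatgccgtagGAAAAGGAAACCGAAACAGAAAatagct
The Isg15 stretch holds 3 overlapping matches, and the windows shown for the neighbouring copies Ifit3 and Ifit3b are identical. Each of these copies holds a further run that is not shown, 122 bases before the start in Ifit3 and 154 in Ifit3b. A match is a sequence description and says nothing of binding in these cells, and for genes without a match only this window was searched.

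Of the 38 genes tested, 10 rose in the knockout and 0 fell (edgeR adjusted p under 0.05), while 13.1% of all genes tested rose and 11.7% fell. At an unadjusted edgeR p under 0.05, 16 were higher and 0 lower, beside 2797 and 2628 of all 13901 genes tested. DESeq2 gave 17 higher (2088 of all 13901 genes tested) and 0 lower, and limma voom without sample weights also gave 0 lower. The genes that rose with edgeR were Irf1, Zbp1, Eif2ak2, Ifit2, Ifitm1, Ifitm2, Ifitm3, Mx2, Irgm1 and Iigp1. DESeq2 kept these calls and added 7, among them Stat2, Irf7, Isg15, Ifit1, Ifit3 and Gbp2. A total of 37 of the 38 had a positive log2 fold change, with a median of 1.24 (all genes tested: 50.3% positive, median 0.00). In 14 of the 38 each knockout library lay above each control, a pattern seen in 25.0% of all genes tested, and in 0 each knockout lay below each control (21.3% of all genes tested). Without control 2, 14 of 39 tested genes rose and 1 fell, against 25.5% and 24.8% of all genes tested, and the median log2 fold change was 0.78. Without that library the groups did not overlap, with the knockouts higher, in 14 genes, where 37.6% of all genes tested did the same. With the replicate number as a block 9 genes rose, against 7.47% of all genes tested. Ifitm1, Ifitm2, Ifitm3 and Zbp1 passed under each of 17 alternatives, including the loss of any 1 library. On leaving out control 1, knockout 2 and knockout 3 in turn, the number that rose was 5, 4 and 4. The share of all genes tested that rose in these fits is not given here. In sorted cells measured in bulk, a change in the share of cells that express a gene and a change of RNA per cell cannot be told apart.

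**Figure D1:**
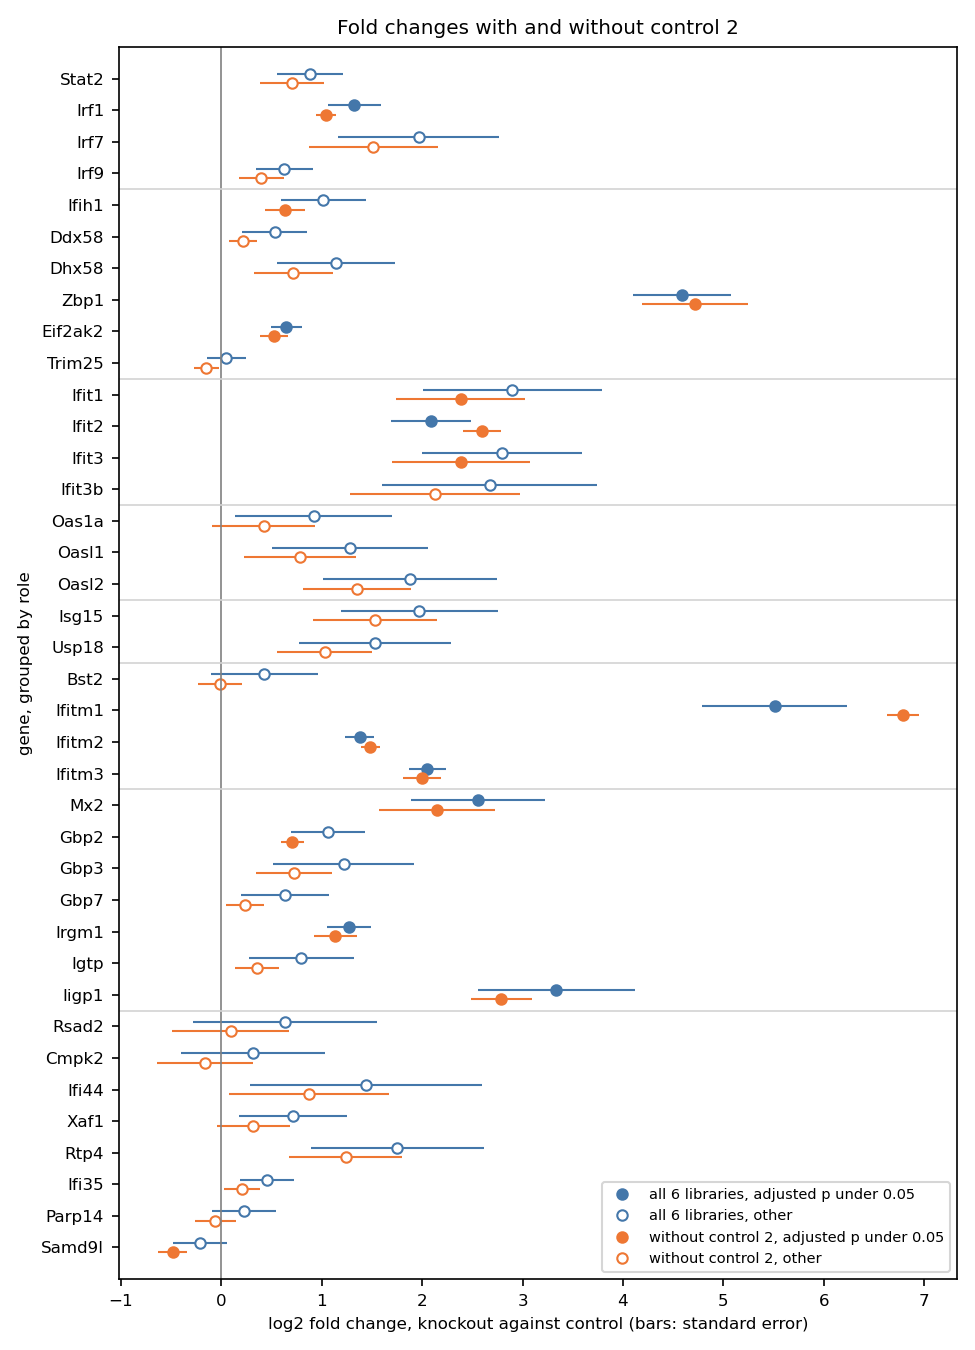
Log2 fold change of knockout against control (x axis) for the 38 tested interferon-stimulated genes, grouped by role, with all 6 libraries (blue) and without control 2 (orange); bars are standard errors and filled points have an adjusted p under 0.05. Ifitm1 (5.51) and Zbp1 (4.59) lie farthest to the right, and Samd9l is the gene left of 0 with all 6 libraries.

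Of the 4 antiviral membrane protein genes, 3 rose. Ifitm1, Ifitm2 and Ifitm3 encode small proteins of the plasma and endosomal membranes that hinder the fusion of enveloped viruses, and they lie side by side on chromosome 7 of GRCm38 (Ifitm2 at 140954837 to 140955987, Ifitm1 at 140967221 to 140969825 and Ifitm3 at 141009586 to 141010770). Ifitm1 was nearly silent in controls at 0.738, 3.54 and 0.548 CPM and stood at 71.0, 81.8 and 68.2 CPM in knockouts. The mean rose from 1.61 ± 1.68 to 73.7 ± 7.20 CPM (SD, n = 3), a 45.8-fold difference of means (log2 fold change 5.51 with SE 0.72, edgeR adjusted p = 0.00591). Control 2 held most of the control signal, and when it was left out the log2 fold change came to 6.79 (SE 0.16). Ifitm3 had the highest mean of the 41 genes in knockouts, and in controls 1 and 3 it lay below Bst2. It was at 149.8, 183 and 235 CPM in controls and 704, 838 and 810.2 CPM in knockouts. Its mean rose 4.14-fold (log2 fold change 2.05 with SE 0.19, edgeR adjusted p = 0.00237), with a gap between the groups wider than the range within either. Ifitm2 rose from 29.4, 37.7 and 28.1 CPM to 82.2, 91.4 and 73.7 CPM (log2 fold change 1.38 with SE 0.14, edgeR adjusted p = 0.00342). Exons of the annotated gene Gm45717 cover 40.92% of the Ifitm2 exons on the same strand, and 48.51% of its 50-base sequences occur in other transcripts, so its counts are uncertain. For these 3 genes the edgeR adjusted p stayed at or below 0.0325 with any 1 library left out.

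Bst2, which encodes tetherin, a protein that holds budding virus particles at the cell surface, did not follow the Ifitm genes. It was at 188, 62.4 and 293 CPM in controls and 194, 242 and 296 CPM in knockouts. Controls 1 and 3 thus lay within or next to the knockout range, and control 2 lay far below all others. The log2 fold change came to 0.43 (SE of 0.53, edgeR adjusted p = 0.595) and was -0.01 (SE 0.22, edgeR adjusted p = 0.969) without control 2. Per kilobase of annotated exon, Ifitm3 and Bst2 had the highest mean levels of the 41 genes in controls (279 and 201 CPM per kilobase), followed by Ifitm2 (48.5). In knockouts Ifitm3 had 1156, Bst2 270.1, Ifitm2 126 and Ifitm1 67.4 CPM per kilobase.

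**Figure D2:**
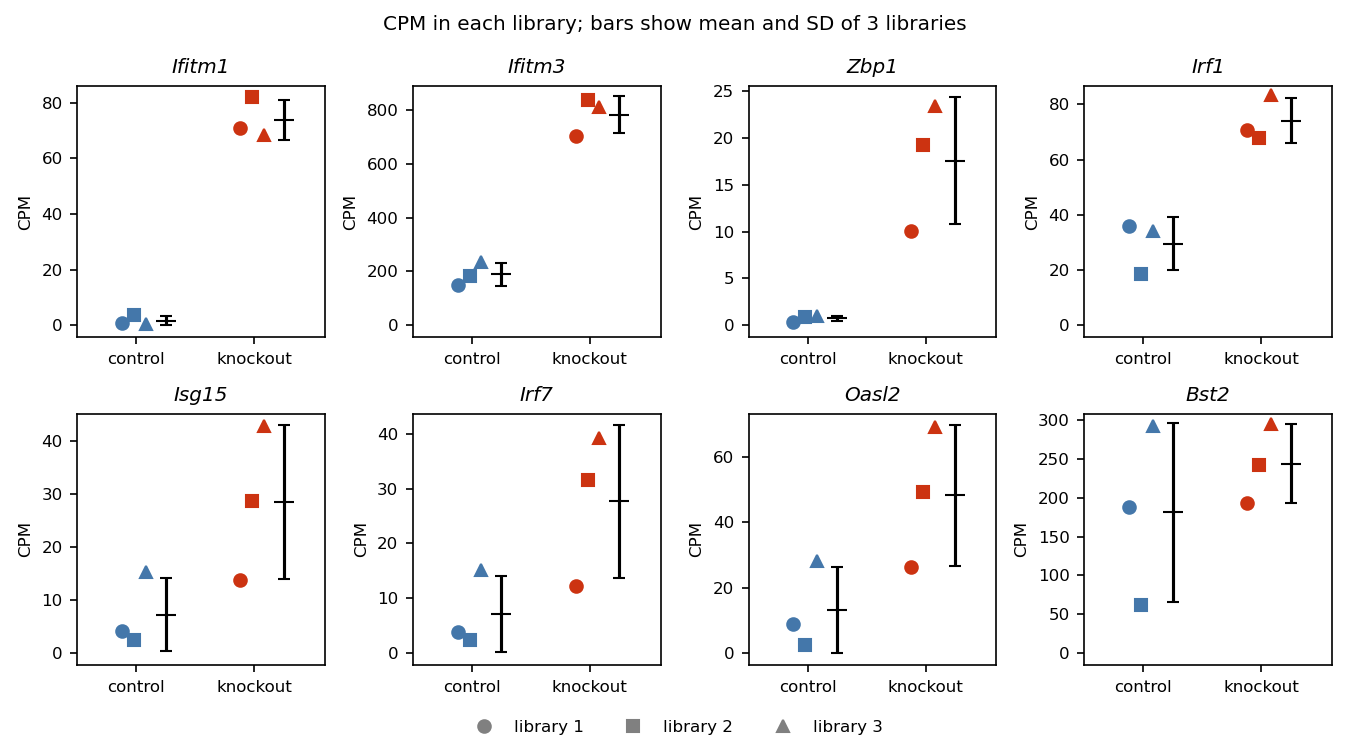
CPM (y axis, linear) of 8 genes in each control (blue) and knockout (red) library; circles, squares and triangles are libraries 1, 2 and 3, and bars show the mean and SD of 3 libraries. Ifitm1, Ifitm3, Zbp1 and Irf1 (top) show no overlap between the groups, while for Isg15, Irf7, Oasl2 and Bst2 (bottom) control 3 reaches the level of knockout 1 or exceeds it.

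Of the transcription factors that carry the interferon signal, Irf1 rose and Stat2, Irf7 and Irf9 did not pass edgeR's test. DESeq2 called Stat2 and Irf7 higher with all libraries (DESeq2 adjusted p = 0.0451 and 0.0323). Irf1 encodes a factor induced by interferon gamma and by inflammatory signals. It was at 36.0, 18.5 and 34.2 CPM in controls and 70.9, 68.0 and 83.4 CPM in knockouts, with no overlap between the groups (log2 fold change 1.33 with SE 0.26, edgeR adjusted p = 0.0190). Control 2 had the lowest Irf1 level, and when it was left out the log2 fold change came to 1.04 (SE of 0.10, edgeR adjusted p = 1.91e-04). The call was lost without control 3 or any 1 knockout library, with edgeR adjusted p values of 0.0590 to 0.0724. Irf7, a factor that amplifies the production of type I interferon, was at 3.90, 2.29 and 15.1 CPM in controls and 12.2, 31.6 and 39.2 CPM in knockouts. Control 3 exceeded knockout 1, and the log2 fold change of 1.96 had an SE of 0.81 (edgeR adjusted p = 0.132); without control 3 it was 3.14 (edgeR adjusted p = 0.0456). Stat2 stood at 28.1, 25.5 and 42.7 CPM in controls and 37.4, 60.5 and 79.4 CPM in knockouts (log2 fold change 0.88 with SE 0.33, edgeR adjusted p = 0.107). Irf9, the DNA-binding partner of STAT2, stood at 29.9, 23.0 and 44.7 CPM in controls and 38.3, 52.9 and 59.5 CPM in knockouts (log2 fold change 0.63 with SE 0.29, edgeR adjusted p = 0.166). In both genes control 3 lay above knockout 1 and below knockouts 2 and 3.

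Among the nucleic acid sensors and their regulators, Zbp1 and Eif2ak2 rose. Zbp1 encodes a sensor of Z-form nucleic acids that can trigger necroptosis. Its level was 0.369, 0.871 and 0.932 CPM in controls and 10.1, 19.2 and 23.4 CPM in knockouts, a 24.3-fold difference of means (log2 fold change 4.59 with SE 0.49, edgeR adjusted p = 0.00346). Each knockout lay far above each control, and the edgeR adjusted p stayed at or below 0.0227 with any 1 library left out. Eif2ak2, which encodes the kinase PKR that halts translation on binding double-stranded RNA, rose from 51.9, 47.8 and 64.0 CPM to 71.6, 89.4 and 95.1 CPM (log2 fold change 0.65 with SE 0.15, edgeR adjusted p = 0.0316). That call was lost on leaving out any 1 of control 1 and knockouts 2 and 3 (edgeR adjusted p = 0.106 to 0.113). Ifih1, which encodes the RNA sensor MDA5, was at 25.2, 10.5 and 32.8 CPM in controls and 35.4, 47.7 and 55.4 CPM in knockouts. The groups of Ifih1 did not overlap, but it did not pass with all libraries (log2 fold change 1.02 with SE 0.42, edgeR adjusted p = 0.137) and did so without control 2 (log2 fold change 0.64, edgeR adjusted p = 0.0345). Dhx58, encoding LGP2, a regulator of the RNA sensors, was at 4.69, 2.01 and 9.21 CPM in controls and 6.89, 12.9 and 15.3 CPM in knockouts (log2 fold change 1.14 with SE 0.59, edgeR adjusted p = 0.208). Ddx58, encoding the RNA sensor RIG-I, averaged 119 ± 47.1 CPM in the controls and 172 ± 27.2 CPM in the knockouts, and Trim25, a ubiquitin ligase that acts on RIG-I, had 105 ± 22.3 and 108 ± 17.6 CPM. In all of these except Zbp1 the lowest of the 6 values was that of control 2.

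The IFIT genes encode proteins that bind viral RNA and lie together on chromosome 19 (from Ifit2 at 34550694 to 34576419 to Ifit1 at 34640871 to 34650009). Ifit2 rose from 3.32, 7.73 and 3.18 CPM to 16.1, 22.6 and 21.9 CPM (log2 fold change 2.09 with SE 0.40, edgeR adjusted p = 0.0163). Here control 2 was the highest control, unlike in the other IFIT genes, and when it was left out the log2 fold change came to 2.60 (SE 0.19). The Ifit2 call was lost on leaving out any 1 of controls 1 and 3 and knockouts 2 and 3 (edgeR adjusted p = 0.0515 to 0.0680). Ifit1 was at 3.06, 0.871 and 8.93 CPM in controls and 12.5, 44.3 and 39.2 CPM in knockouts, a larger but more variable difference (log2 fold change 2.90 with SE 0.89, edgeR adjusted p = 0.0653). It passed without control 2 (log2 fold change 2.38, edgeR adjusted p = 0.0195). With all libraries DESeq2 called Ifit1 and Ifit3 higher. Ifit3 was at 1.58, 1.20 and 6.19 CPM in controls and 8.32, 24.7 and 29.4 CPM in knockouts (log2 fold change 2.79 with SE 0.80, edgeR adjusted p = 0.0526), and passed without control 2 or without control 3 (edgeR adjusted p = 0.0249 and 0.0343). Its neighbour Ifit3b was at 0.316, 0.109 and 1.97 CPM in controls and 1.64, 5.41 and 8.30 CPM in knockouts (log2 fold change 2.67 with SE 1.07, edgeR adjusted p = 0.125). Of the 50-base sequences of Ifit3, 51.24% also occur in Ifit3b, so reads of the pair may have been split by the counting. Summed over both copies the level was 1.90, 1.31 and 8.17 CPM in controls and 9.97, 30.1 and 37.6 CPM in knockouts, with every knockout above every control.

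None of the OAS and ISG15 system genes passed edgeR's test with all libraries, while DESeq2 called Isg15 higher (DESeq2 adjusted p = 0.0263). OAS enzymes make the second messenger that activates RNase L, and OASL proteins are related members of the family. Oasl2 was at 9.01, 2.40 and 28.0 CPM in controls and 26.2, 49.3 and 69.1 CPM in knockouts, a difference of means of 3.67-fold with overlap of control 3 and knockout 1 (log2 fold change 1.88 with SE 0.87, edgeR adjusted p = 0.170). Oasl1 was at 1.00, 0.272 and 2.14 CPM in controls and 1.13, 3.79 and 3.40 CPM in knockouts (log2 fold change 1.28 with SE 0.77, edgeR adjusted p = 0.274). Oas1a was at 2.74, 0.817 and 6.91 CPM in controls and 3.70, 5.64 and 10.5 CPM in knockouts (log2 fold change 0.92 with SE 0.78, edgeR adjusted p = 0.430). Oas1a shares 57.57% of its 50-base sequences with other transcripts, nearly all of Oas1g, which had 16 counts over the 6 libraries. Oas2 and Oas3 were too low to be tested: Oas2 had 1, 1 and 4 counts in controls and 2, 0 and 4 in knockouts, and Oas3 had 0, 0 and 3 counts in controls and 2, 6 and 9 in knockouts.

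Isg15 encodes a ubiquitin-like protein and Usp18 the protease that removes it from its targets and dampens signalling at the type I receptor. Isg15 was at 4.16, 2.40 and 15.2 CPM in controls and 13.9, 28.8 and 42.9 CPM in knockouts. Control 3 lay between knockouts 1 and 2, and the log2 fold change of 1.97 had an SE of 0.78 (edgeR adjusted p = 0.121); without control 3 it was 3.10 (edgeR adjusted p = 0.0429), and without control 2 it was 1.53 (edgeR adjusted p = 0.0795). Usp18 was at 5.32, 1.42 and 11.6 CPM in controls and 9.25, 18.02 and 25.7 CPM in knockouts (log2 fold change 1.53 with SE 0.76, edgeR adjusted p = 0.195).

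Interferon-induced GTPases include the MX proteins, which trap viral nucleocapsids, and the guanylate-binding proteins (GBP) and immunity-related GTPases (IRG), which attack the vacuoles of intracellular pathogens. Of 8 members 7 were tested, and Irgm1, Iigp1 and Mx2 rose. Irgm1, a regulator of the other immunity-related GTPases, rose from 62.6, 59.8 and 88.3 CPM to 129, 185 and 195 CPM (log2 fold change 1.27 with SE 0.22, edgeR adjusted p = 0.0126), and lost its call on leaving out any 1 of control 1 and knockouts 2 and 3 (edgeR adjusted p = 0.0538, 0.0580 and 0.0511). Iigp1, an effector of that family, rose from 4.64, 0.545 and 6.19 CPM to 25.2, 44.6 and 45.3 CPM, a 10.1-fold difference of means (log2 fold change 3.34 with SE 0.78, edgeR adjusted p = 0.0302). Control 2 had 10 counts of Iigp1, and when it was left out the log2 fold change came to 2.79 (SE of 0.30, edgeR adjusted p = 3.37e-04). The Iigp1 call was lost on leaving out any 1 of the 5 remaining libraries (edgeR adjusted p = 0.0645 to 0.104). Mx2 rose from 0.896, 0.381 and 1.59 CPM to 2.26, 7.36 and 7.35 CPM (log2 fold change 2.56 with SE 0.67, edgeR adjusted p = 0.0415), a call lost on leaving out any 1 of controls 1 and 3 and knockouts 2 and 3 (edgeR adjusted p = 0.0660 to 0.131). Gbp2 showed no overlap between the groups, at 36.1, 15.5 and 42.5 CPM in controls and 57.0, 67.8 and 71.9 CPM in knockouts. With all libraries it did not pass edgeR's test (log2 fold change 1.06 with SE 0.37, edgeR adjusted p = 0.0883), while DESeq2 called it higher. Once control 2 was removed the log2 fold change came to 0.71 (SE of 0.12, edgeR adjusted p = 0.00234). Gbp3, Gbp7 and Igtp had overlapping groups, with means of 23.1 ± 18.5, 20.0 ± 10.02 and 10.1 ± 5.73 CPM in controls and 53.7 ± 19.1, 31.1 ± 7.09 and 17.6 ± 4.56 CPM in knockouts. Exons of Gm43802 cover 11.35% of the Gbp7 exons, and exons of Irgm2 cover 8.01% of those of Igtp, both on the same strand. Mx1 was not tested with all libraries, having 3, 0 and 3 counts in controls and 3, 26 and 10 counts in knockouts.

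None of the 8 other effectors passed edgeR's test with all libraries, and their groups overlapped in each case. Rtp4, which encodes a protein that binds viral RNA and regulates the interferon response, was at 5.69, 1.96 and 21.9 CPM in controls and 19.3, 35.4 and 44.9 CPM in knockouts (log2 fold change 1.75 with SE 0.86, edgeR adjusted p = 0.191). Without control 3 it passed (log2 fold change 3.09, edgeR adjusted p = 0.0476). Exons of Gm45338 cover 13.89% of the Rtp4 exons on the same strand. In control 2 Gm45338 had 29 counts beside 36 of Rtp4, and the 2 genes summed to 3.54 CPM there. Ifi44 had the largest ratio of highest to lowest control among the tested genes (27.5), at 3.06, 0.871 and 23.9 CPM, against 11.3, 25.4 and 39.0 CPM in knockouts (log2 fold change 1.44 with SE 1.15, edgeR adjusted p = 0.405). Xaf1, a pro-apoptotic factor, was at 44.4, 23.4 and 94.7 CPM in controls and 58.1, 92.4 and 115 CPM in knockouts (log2 fold change 0.71 with SE 0.54, edgeR adjusted p = 0.376). Ifi35 was at 17.8, 11.8 and 23.1 CPM in controls and 19.5, 25.1 and 27.8 CPM in knockouts (log2 fold change 0.46 with SE 0.27, edgeR adjusted p = 0.262), and exons of an opposite-strand gene cover 16.79% of its exons. The 4 remaining genes also gave no call. Rsad2 (viperin) had 3.90 ± 3.40 and 6.07 ± 4.11 CPM in controls and knockouts, with a wide error (log2 fold change 0.64 with SE 0.92, edgeR adjusted p = 0.647). In the same order, the nucleotide kinase gene Cmpk2 had 4.51 ± 3.33 and 5.60 ± 2.81 CPM. The ADP-ribosyltransferase gene Parp14 had 73.8 ± 26.5 and 86.2 ± 22.0 CPM, and the restriction factor gene Samd9l 91.1 ± 29.8 and 78.6 ± 13.4 CPM. Samd9l had the single negative log2 fold change with all libraries (-0.21, SE 0.27, edgeR adjusted p = 0.603). Without control 2, at 58.7 CPM the lowest of the 6 libraries, it fell (log2 fold change -0.48 with SE 0.14, edgeR adjusted p = 0.0284), and it lay at 97.3 and 117 CPM in controls 1 and 3 against 65.4, 78.3 and 92.1 CPM in knockouts. It was also called lower by limma voom with sample weights, which kept all 6 libraries.

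The spread within groups followed the same order of libraries in most of these genes. In 32 of the 38 tested genes (84.2%) control 2 was lowest, control 1 in the middle and control 3 highest, against 22.3% of all genes tested. In 35 of 38 (92.1%) knockout 1 was the lowest knockout, against 32.3% of all genes tested, and in 30 of 38 (78.9%, against 30.9%) knockout 3 was the highest. Control 3 exceeded knockout 1 in 24 of the 38 (63.2%, against 47.0% of all genes tested). The order of the controls was that of all 28 genes that did not pass the test and of 4 of the 10 that rose. The test itself depends on the spread within groups, so this split does not show 2 kinds of gene. Summed over all 41 genes the level was 1238, 819 and 1782 CPM in controls and 2190, 2889 and 3167 CPM in knockouts, and did not overlap. That separation rested on Ifitm3: without this gene, left out after its values were seen, the sum was 1088, 636 and 1548 CPM in controls and 1486, 2051 and 2356 CPM in knockouts, with control 3 above knockout 1. Genes of this list share their libraries, so these counts describe 6 libraries and not 38 independent observations.

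**Figure D3:**
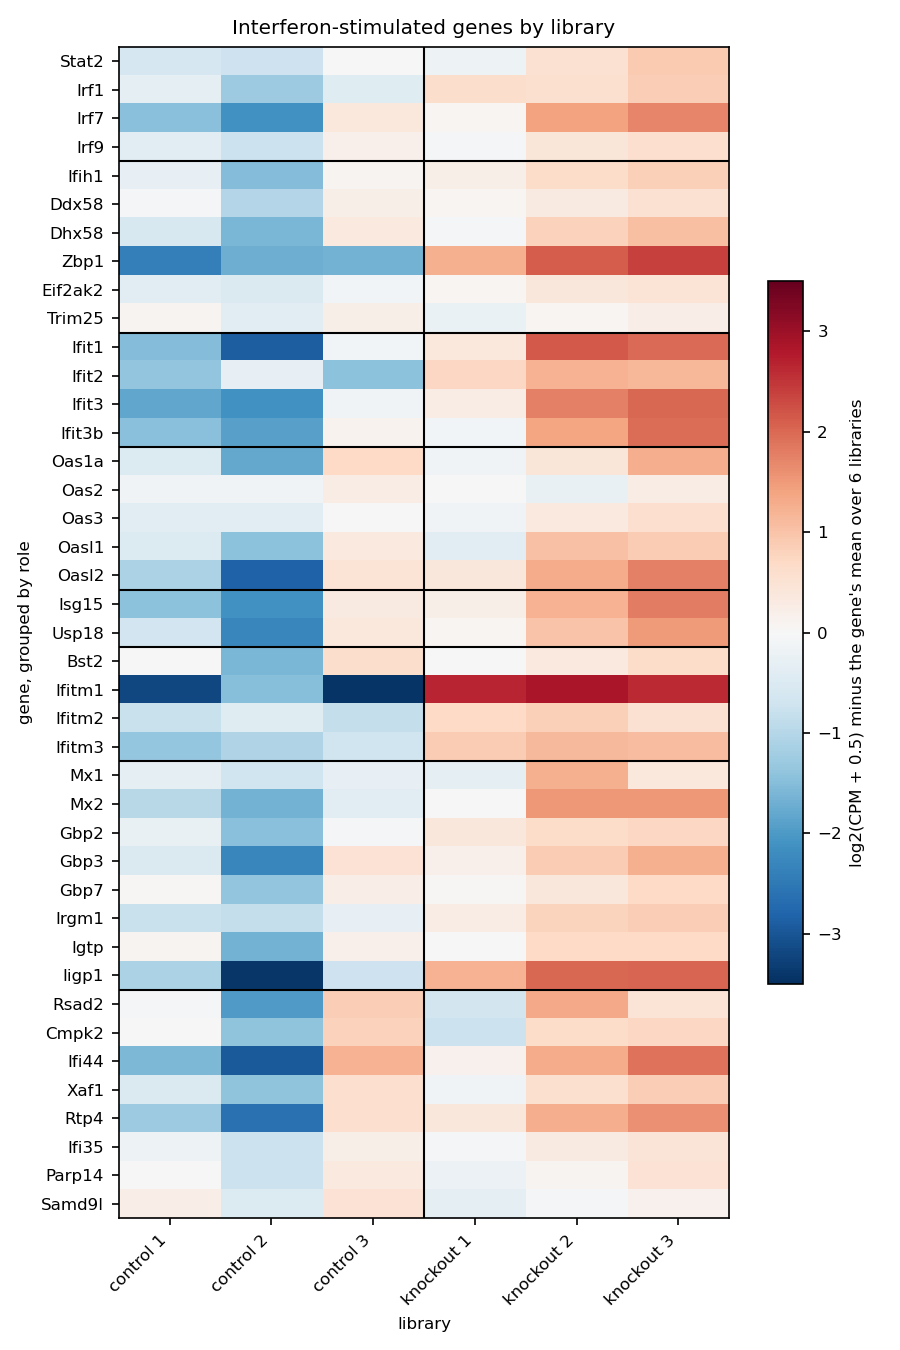
Colour shows log2(CPM + 0.5) minus the mean of each gene over the 6 libraries (columns) for all 41 genes (rows, grouped by role, with lines between roles). Control 2 is the bluest column in most rows, knockouts 2 and 3 are the reddest, and control 3 resembles knockout 1 in many rows but not for Ifitm1, Ifitm2, Ifitm3 or Zbp1.

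All 38 tested genes had a within-group SD of log2(CPM + 0.5), pooled over both groups, above the median of all genes tested. The median SD was 0.77 for these genes and 0.17 for all genes tested, at a similar median level (23.5 and 24.5 CPM). It was lowest for Ifitm2 (0.19), Eif2ak2 (0.21) and Ifitm3 (0.25), and highest for Ifi44 (1.62), Oasl2 (1.27), Rsad2 (1.25) and Rtp4 (1.21). Relative to controls 1 and 3, control 2 had a median difference of -1.34 (log2) over the 38 genes, against 0.00 over all genes tested. Between controls 3 and 1 the median difference was 0.62 (all genes 0.02), and between knockouts 3 and 1 it was 0.91 (all genes -0.01). Among the controls, control 2 is the library with high fibroblast, pericyte and smooth muscle marker sums and a low endothelial sum. It is also the single female control, whereas knockout 1, the lowest knockout, is the single male knockout. The part of cell make-up in these differences was not tested. With a term for sex, 7 of the 38 genes rose (Irf1, Zbp1, Ifit2, Ifitm1, Ifitm2, Ifitm3 and Irgm1), where 10.7% of all genes tested did.

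**Figure D4:**
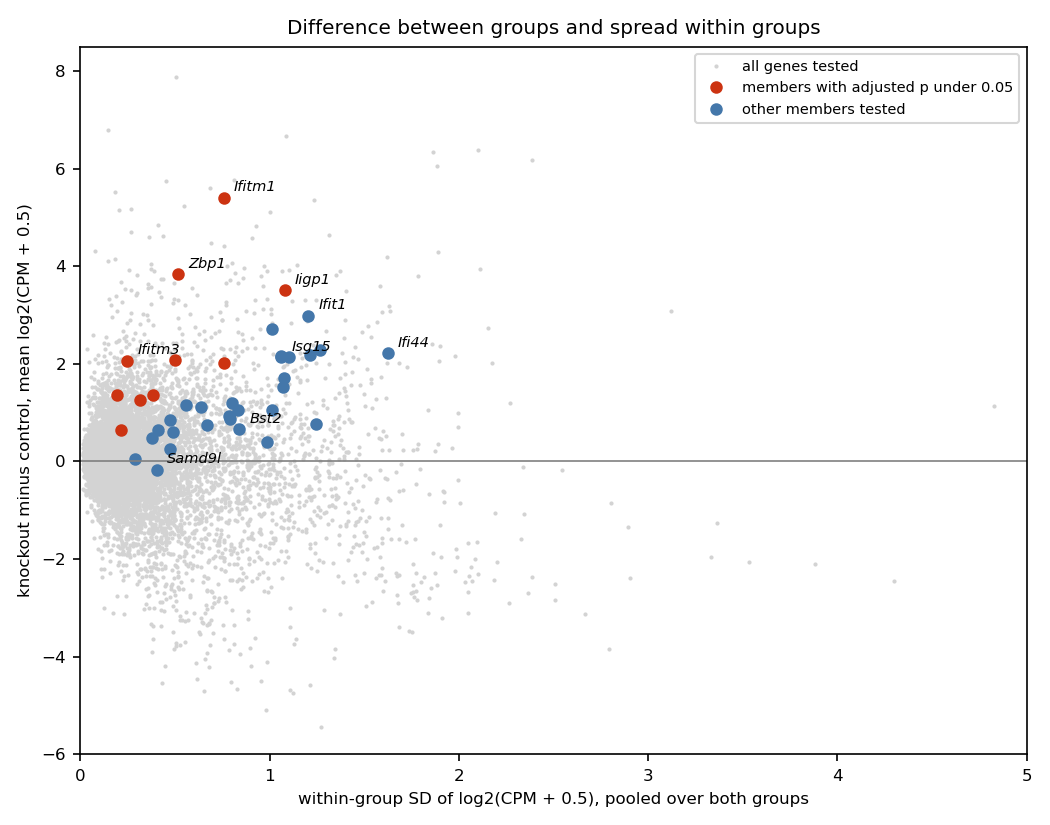
Each point is a gene, with the within-group SD of log2(CPM + 0.5) on the x axis and the difference of group means on the y axis; grey points are all 13901 genes tested, red points the 10 interferon-stimulated genes that rose and blue points the other 28. Ifitm3 combines a difference of 2.07 with an SD of 0.25, while Isg15 has a similar difference of 2.14 with an SD of 1.06.

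Interferon transcripts themselves were nearly undetected. Of 10 ligand genes, 8 (Ifna1, Ifna2, Ifna4, Ifna5, Ifnk, Ifng, Ifnl2 and Ifnl3) had 0 counts in all 6 libraries, which allows a level of up to 0.174 CPM in the smallest library (3 counts, for counting error). Ifnb1 had 1 count, in knockout 1, and Ifne 1 count, in control 3. Of 5 tested receptor genes, 1 rose and 0 fell (edgeR), beside 13.1% and 11.7% of all genes tested. At an unadjusted edgeR p under 0.05 the counts were also 1 and 0, beside 2797 and 2628 of all 13901 genes tested. Without control 2, Ifnar2 and Ifngr2 rose and Ifnar1 and Ifngr1 fell, beside 25.5% and 24.8% of all genes tested. Ifnar2 rose from 85.7, 51.9 and 81.3 CPM to 119, 121 and 121 CPM (log2 fold change 0.72 with SE 0.19, edgeR adjusted p = 0.0423), a call lost without any 1 library other than control 2 (edgeR adjusted p up to 0.129). Its partner Ifnar1 was at 242, 173 and 257 CPM in controls and 185, 191 and 188 CPM in knockouts (log2 fold change -0.25, edgeR adjusted p = 0.272, and -0.44, edgeR adjusted p = 3.547e-04, without control 2). Ifngr1, a chain of the interferon gamma receptor, had 104 ± 23.8 and 95.7 ± 3.29 CPM, and once control 2 was removed the log2 fold change came to -0.33 (edgeR adjusted p = 0.00206).

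Of 9 tested genes for receptor kinases, STATs and their inhibitors, 4 rose and 1 fell (13.1% and 11.7% of all genes tested). Without control 2, 7 rose, with Jak1, Stat3 and Socs1 added, and 1 fell (25.5% and 24.8% of all genes tested). The feedback inhibitor gene Socs3 rose from 34.7, 32.7 and 34.5 CPM to 129, 126 and 114 CPM (log2 fold change 1.86 with SE 0.07, edgeR adjusted p = 4.234e-04). Pias1, an inhibitor of STAT signalling, rose from 41.6 ± 1.03 to 70.4 ± 2.89 CPM (log2 fold change 0.76), and the phosphatase gene Ptpn2 from 22.4 ± 0.894 to 31.7 ± 0.888 CPM (log2 fold change 0.51). These 3 genes had narrow groups that did not overlap in any library. Jak2 also rose (from 140.02 ± 0.452 to 162 ± 3.18 CPM, a call lost without any single library except control 2) and the kinase gene Tyk2 fell from 34.1 ± 1.46 to 25.2 ± 1.72 CPM, both named after their values were seen; the Tyk2 call was lost on leaving out any 1 of control 3 and knockouts 1 and 2 (edgeR adjusted p up to 0.0680).

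Adaptors, kinases and IRF genes of nucleic acid sensing had 4 genes that rose and 1 that fell of 12 tested (13.1% and 11.7% of all genes tested). Without control 2, 4 rose and 3 fell, namely Irf8, Tlr3 and Irf3 (25.5% and 24.8% of all genes tested). Tbk1, the kinase that activates IRF3, rose from 53.2 ± 1.44 to 84.4 ± 4.81 CPM (log2 fold change 0.67), and the adaptor gene Traf3 from 61.4 ± 5.20 to 85.9 ± 1.65 CPM (log2 fold change 0.48); without control 1 the edgeR adjusted p of Traf3 was 0.0502. Irf8, a factor best known from myeloid cells, fell from 13.8, 10.3 and 13.4 CPM to 2.42, 3.46 and 4.51 CPM (log2 fold change -1.85 with SE 0.26, edgeR adjusted p = 0.00733). Ikbke and Cgas (also known as Mb21d1) also rose. The Ikbke call was lost without any single library except control 2 (edgeR adjusted p up to 0.131), and that of Cgas on leaving out any 1 of controls 1 and 3 and knockouts 2 and 3 (edgeR adjusted p up to 0.137).

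A further list held 61 interferon-induced genes outside the 41. Of 52 tested, 19 rose and 1 fell, beside the 13.1% and 11.7% of all genes tested. Their median log2 fold change was 0.80, and without control 2, 26 of 53 rose and 3 fell (25.5% and 24.8% of all genes tested). Gbp4, a guanylate-binding protein gene, rose from 3.90, 2.18 and 3.73 CPM to 34.9, 39.6 and 41.2 CPM (log2 fold change 3.56 with SE 0.24, edgeR adjusted p = 0.00123). Pml, encoding the organizer of nuclear bodies, rose from 71.5 ± 3.54 to 119.8 ± 10.2 CPM (log2 fold change 0.75), and Gbp6 from 1.01 ± 0.408 to 6.19 ± 0.573 CPM (log2 fold change 2.61). Tnfsf10, which encodes the death ligand TRAIL, was the gene that fell (24.4, 7.35 and 20.9 CPM to 2.36, 3.35 and 5.74 CPM, log2 fold change -2.20, SE 0.55); it was named because of the small count, and its call was lost without any 1 library other than control 2 (edgeR adjusted p up to 0.134).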

How the data were processed

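Raw counts per gene were deposited by the authors for 6 libraries, which entered the fits unchanged. FastQC 0.11.5, STAR 2.7.6a and the build GRCm38 are named per the submitters' processing notes. What counted the reads, with which strand setting and annotation, is not given in the sources used here. Per the labels' protocols, polyadenylated RNA was made into TruSeq libraries with either an unstranded or a stranded kit, without saying which library had which.

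Symbols, positions and exon lengths came from GENCODE M21 (GRCm38), which matched 52489 of 52636 identifiers. Promoters came from RefSeq. Counts were fitted in R 4.3.3 with edgeR 4.0.16 (filterByExpr, TMM, glmQLFit, glmQLFTest, two-sided) with no covariate, with Benjamini-Hochberg adjustment over all 13901 genes tested and a threshold of 0.05. The SE is the log2 fold change divided by the square root of F. Intervals and floors cover counting error. The fit was also run on simulated counts that had no outlying library and no library order shared between genes. No statement here rests on that run. All pairs of libraries differed beyond sampling noise (lowest chi-square per degree of freedom 5.80, controls 1 and 3).

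Alternatives were other scalings, DESeq2 1.42.0, limma 3.58.1 voom with and without sample weights, 2 other filters, a replicate block, a sex term, each library left out, a test against a 1.5-fold change and a threshold of 0.01. The members, lists and tests were chosen with earlier results of these data known. Within each role the 4 genes with the smallest p were given in full, and from each pathway list the 3 with the smallest p and a mean of at least 1 CPM.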

Additional observations from a re-analysis of the deposited data

How the results depend on the processing

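The count of 10 genes that rose was 17 with DESeq2 (2088 of all 13901 genes tested), 5 in the test against a 1.5-fold change and 4 at an adjusted p under 0.01, and it ranged from 4 to 14 with 1 library left out. The count of 0 that fell was 1 with sample weights, and 0 to 1 with 1 library left out. With 1 library left out the log2 fold change of Bst2 ranged from -0.012 (without control 2) to 0.94 (without control 3). With the replicate block 9 of 38 genes rose. The deviations of libraries 1, 2 and 3 from their group means correlated at -0.174, 0.161 and 0.254 between the groups. For libraries of unlike number the correlations ran from -0.329 to 0.322. With 3 libraries per group these values cannot show whether the replicate numbers pair the libraries. For the 29 genes given in full, 459 of 522 alternative values kept the direction and side of the threshold, 41 lost the call, 21 gained it and 1 changed sign; the cause was not tested. Under RLE, upper-quartile and library-size scaling 37 of 38 genes had a positive log2 fold change, as with TMM, while the split of all calls moved from 1816 higher and 1621 lower to 2501 and 1268 with library size alone. Genes below about 1 CPM, such as Oas2, Oas3 and Mx1, are limited by depth.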
